A study of Rattus norvegicus with 12 samples.

Results

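The genes described here make cholesterol and fatty acids, or regulate and move sterols, in primary neuroglial cultures of rat brain cortex. They were chosen by name, 29 genes of the 28111 gene names in the deposited tables, and the rows of 1 name were summed before any comparison. Of the 29, 7 act in the early mevalonate steps, 11 in the squalene and sterol steps, 3 are regulators, 3 transport sterols and 5 act in fatty acid synthesis. Each of the 29 was found in the tables and each passed the filter on low values in all 6 comparisons made below.

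The cultures came from newborn rat pups and had grown for 10 days in vitro (DIV) when the preparations were added, and total RNA was taken 4 h later. The study's methods state that the rats were Wistar and that cytosine arabinoside was given to all cultures on an earlier day to limit glial growth. IC denotes the intact cultures, which received no preparation. EV denotes cultures given 10 µg/mL of extracellular vesicles, which are membrane-bound particles released by cells. A further group received 15 µg/mL of 3-100 kDa proteins, and the last group received 45 µg/mL of total secretome, all from glial progenitor cells derived from human induced pluripotent stem cells. Each group had 3 libraries. The mass of material added differed between the treatments, so a difference between treatments cannot be told apart from a difference in dose. The study's methods say in general that experiments were repeated on unrelated cultures, but no source used here ties a library to its culture or animal, so the p-values measure the spread between these libraries, which may be in part technical. The study also names the day as a source of variation among IC and EV libraries. The labels do not give the day of a library, so its part in the results was not tested.

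Cholesterol is built from acetyl-CoA. The early steps make mevalonate and join isoprenoid units into farnesyl diphosphate, the squalene steps close the sterol ring, and the later enzymes trim and reduce lanosterol to cholesterol. The transcription factors SREBP2 (gene Srebf2) and SREBP1 (gene Srebf1) switch on these genes when the membrane of the endoplasmic reticulum is poor in sterol, and the protein Insig1 holds them back when it is rich. The liver X receptors (LXR) sense oxidised sterols and switch on the exporters Abca1 and Abcg1 as well as Srebf1. In brain, cholesterol is made locally because lipoproteins of the blood do not cross into the tissue, and in adult brain astrocytes and oligodendrocytes make most of it.

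Levels are given in TPM, a unit of transcript abundance that divides by transcript length and sums to the same total in each library, so levels of different genes can be set side by side. The tables hold no read counts, so how deeply each library was sequenced is unknown, and no interval for counting error is printed. The 12 libraries held between 14890 and 15392 rows above 0, and the 29 genes together took between 2460 and 3222 TPM per library. Marker genes of neurons summed to between 1862 and 2498 TPM, those of astrocytes to between 693 and 1322 TPM, and those of the oligodendrocyte lineage to between 160.3 and 333 TPM. Markers of microglia stayed between 0.190 and 2.20 TPM in sum, endothelial markers between 0 and 0.595 TPM over the 4 of 5 that the tables name, and fibroblast and mural markers between 1.69 and 4.28 TPM. In such bulk samples fewer cells of a type and less RNA per cell cannot be told apart.

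In the intact cultures the enzymes of sterol synthesis covered a wide range of levels. Hmgcs1, which condenses acetyl-CoA units into the precursor of mevalonate, was the highest of the 29 genes at 629 ± 124 TPM (SD, n = 3), with 651, 495 and 741 TPM in IC libraries 1 to 3. Fdps, which makes farnesyl diphosphate, followed at 343 ± 55.1 TPM (SD, n = 3), with 318, 406 and 304 TPM. Cyp51, which removes a methyl group from lanosterol, was the third at 158 ± 9.41 TPM (SD, n = 3), with 155, 150.5 and 168 TPM. These 3 genes were set apart from each other by more than their own spread, since no IC library of Hmgcs1 was as low as any of Fdps and none of Fdps as low as any of Cyp51. The lowest was Ebp, a sterol isomerase, at 6.81 ± 1.91 TPM (SD, n = 3), with 7.41, 8.34 and 4.68 TPM. Next above it came Abcg1, a sterol exporter, with 8.39, 5.52 and 8.77 TPM, and Stard4, which carries cholesterol between membranes, with 10.4, 6.41 and 10.9 TPM. These 3 genes overlapped in their IC libraries.

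By role, the mean levels in IC ran from 19.0 to 629 TPM for the 7 early genes, from 6.81 to 158 TPM for the 11 squalene and sterol genes, from 19.7 to 84.1 TPM for the 3 regulators, from 7.56 to 11.4 TPM for the 3 transporters and from 38.5 to 126 TPM for the 5 fatty acid genes. The order of all 29 genes has 28 pairs of neighbours, and in 23 of them the IC libraries of both genes overlapped. The 5 steps that did not overlap were Hmgcs1 over Fdps, Fdps over Cyp51, Fdft1 over Acat2, Elovl6 over Srebf1 and Tm7sf2 over Abca1. Replicate spread in TPM as deposited differed widely between the genes. Fdft1, squalene synthase, had a coefficient of variation of 0.206% over the 3 IC libraries. Mvd, which makes isopentenyl diphosphate, reached 32.8% and Scd1, which desaturates fatty acids, 32.9%. The tests below rescale the libraries, with factors over all 12 of 1.08, 1.02 and 0.945 for IC 1 to 3. These spreads, and the overlaps counted above, were read before that rescaling, and the near equality of Fdft1 does not outlast it. Levels of Acat2, Idi1, Fdps and Nsdhl are uncertain to the extent that reads were shared with the copies that RefSeq lists for them (3, 1, 5 and 1), which are not used here, and Ebp has the paralogue Ebpl at up to 8.86 TPM. Elovl6 had 2 rows, of which the lesser held between 0 and 2.67 TPM.

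**Figure D1:**
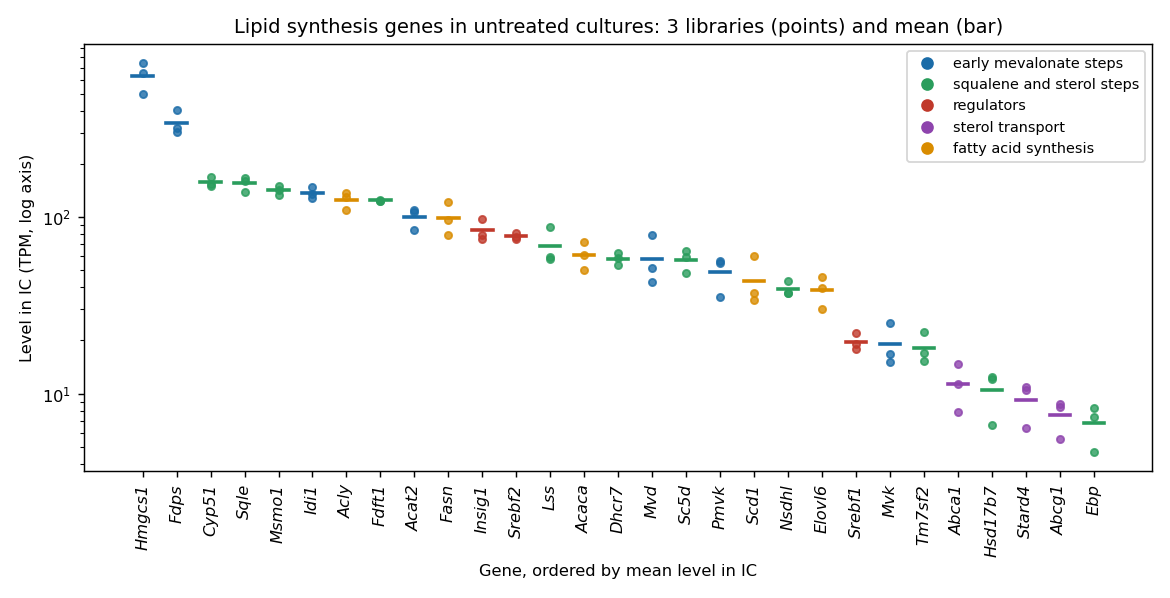
Level of each of the 29 genes in the intact cultures (IC) in TPM on a log axis, ordered by mean, with the 3 libraries as points, the mean as a bar and colour for the role of the gene. Hmgcs1 stands highest at a mean of 629 TPM and Ebp lowest at 6.81 TPM, and most neighbours in the order overlap.

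Before the groups are compared, a pair of libraries has to be named. IC 2 and EV 1 took the 2 highest places among all 12 libraries for Mvk, Mvd and Tm7sf2, and the 2 lowest places for Hmgcs1, Sqle, Cyp51, Hsd17b7, Sc5d and Insig1, while they took neither extreme together for the other 20 genes. Mvd, for example, had 79.2 TPM in IC 2 and 77.4 TPM in EV 1, and no more than 59.3 TPM in any other library. Hmgcs1 had 495 TPM in IC 2 and 460 TPM in EV 1, and at least 586 TPM in any other library. In these libraries the mevalonate kinase Mvk and the decarboxylase Mvd were thus high where Hmgcs1 was low. The pair stood at an extreme for 9 of the 29 genes (31%) and for 27.7% of the 13270 genes that reached 1 TPM in at least 3 of the 12 libraries, 13.2% highest and 14.5% lowest, so the libraries stood apart over all genes too.

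The fold changes of these 9 genes against IC moved with these libraries, but the movement was not confined to them. For EV against IC, leaving out EV 1 took the log2 fold change of Abca1 from 0.05 to 0.45. It took Pmvk from -0.01 to -0.38 and Scd1 from -0.10 to 0.25. Other genes outside the 9 moved little, such as Idi1 (from 0.06 to 0.05) and Fdft1 (from -0.09 to -0.12). For EV against IC, Hmgcs1 had a log2 fold change of -0.01 with all libraries, -0.18 without IC 2, 0.18 without EV 1 and 0.01 without both. Without both, the 9 genes lay between -0.33 (Tm7sf2) and 0.13 (Insig1), and none had an unadjusted p under 0.05 in limma. For 3-100 kDa proteins against IC, leaving out IC 2 took Hmgcs1 from 0.16 to -0.0046 and Mvk from -0.40 to -0.19. For total secretome against IC it took Hmgcs1 from -0.0011 to -0.17 and Mvk from -0.40 to -0.20. Of the 9 genes only Cyp51, after 3-100 kDa proteins, had an unadjusted p under 0.05 in a comparison with IC, with a log2 fold change of 0.35 without IC 2 (adjusted p = 0.180 by limma).

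**Figure D2:**
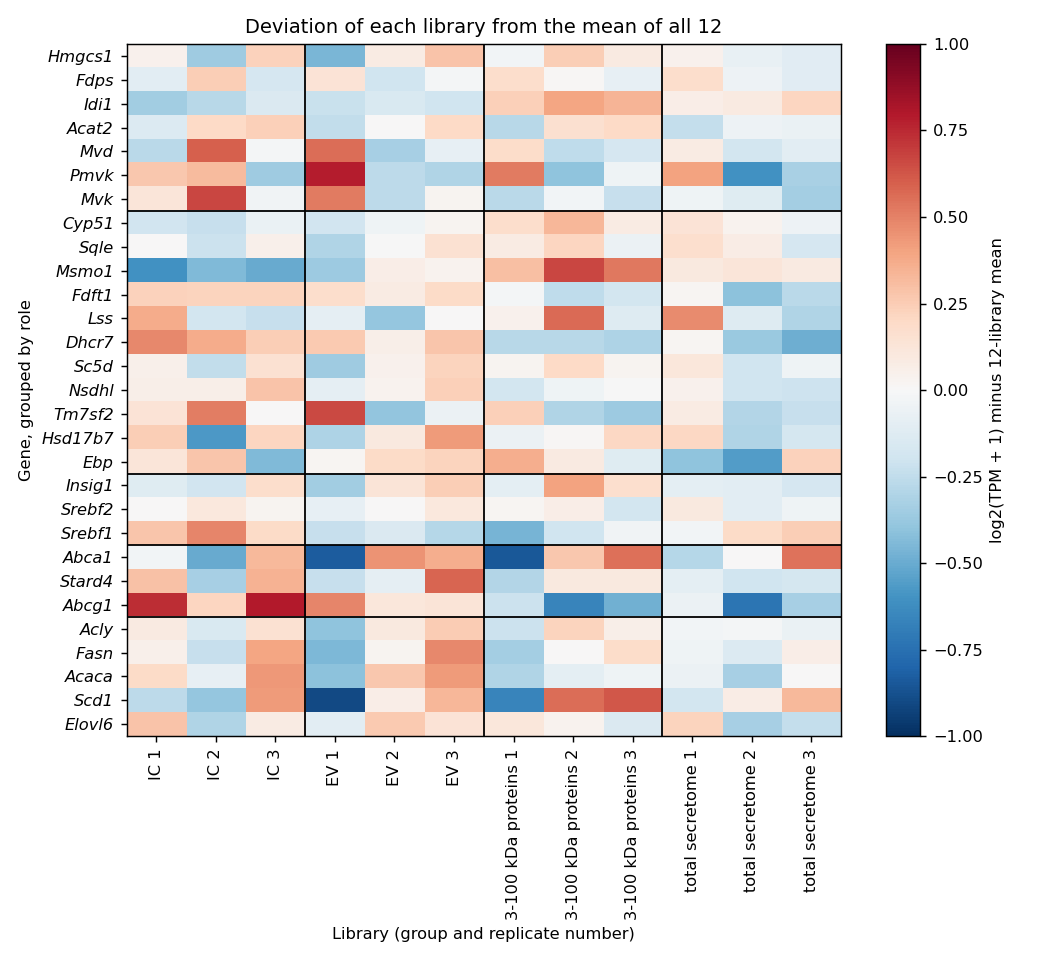
Deviation of log2(TPM + 1) in each library from the gene's mean over all 12, with TPM as deposited. Genes are in rows by role and libraries in columns by group. Mvk, Mvd and Tm7sf2 are red in IC 2 and EV 1 while Hmgcs1, Sqle and Insig1 are blue there, and Msmo1 turns from blue in IC to red after 3-100 kDa proteins.

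Stretches of promoter are shown for the 2 genes of the set with the clearest rise or fall, Msmo1 and Dhcr7, and for Idi1, which was higher along with Msmo1 after 3-100 kDa proteins and after total secretome at an unadjusted p under 0.05. They are the 250 bases before the start of transcription in the RefSeq annotation of the rat assembly GRCr8, read 5′ to 3′ on the strand of the gene. Capitals mark CCAAT boxes (CCAAT, or ATTGG on the other strand), to which the factor NF-Y binds, and GC boxes (GGGCGG, or CCGCCC on the other strand), to which Sp1 binds, since both factors are known partners of SREBP at sterol genes. Msmo1 lies on chr16:29746863-29747112 (plus strand), Idi1 on chr17:66547525-66547774 (minus strand) and Dhcr7 on chr1:208444184-208444433 (plus strand).
Msmo1: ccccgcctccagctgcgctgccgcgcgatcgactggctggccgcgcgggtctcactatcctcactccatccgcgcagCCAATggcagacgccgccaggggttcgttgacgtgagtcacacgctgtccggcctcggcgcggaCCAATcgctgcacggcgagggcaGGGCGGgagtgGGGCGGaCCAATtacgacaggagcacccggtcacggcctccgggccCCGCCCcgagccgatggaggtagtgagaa
Idi1: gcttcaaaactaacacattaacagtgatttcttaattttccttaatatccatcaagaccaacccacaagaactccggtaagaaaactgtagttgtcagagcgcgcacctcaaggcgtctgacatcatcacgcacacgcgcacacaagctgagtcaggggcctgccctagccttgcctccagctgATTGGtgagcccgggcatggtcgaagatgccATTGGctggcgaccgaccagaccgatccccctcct
Dhcr7: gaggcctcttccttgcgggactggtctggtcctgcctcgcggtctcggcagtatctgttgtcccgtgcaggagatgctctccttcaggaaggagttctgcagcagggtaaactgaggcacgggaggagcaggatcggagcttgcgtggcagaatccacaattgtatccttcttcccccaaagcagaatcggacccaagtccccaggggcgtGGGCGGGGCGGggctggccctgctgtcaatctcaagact
The stretch of Msmo1 holds 3 CCAAT boxes, which begin 173, 109 and 68 bases before the start, and 3 GC boxes at 86, 75 and 29 bases. That of Idi1 holds 2 CCAAT boxes, both read on the other strand, at 66 and 35 bases and no GC box, and that of Dhcr7 holds no CCAAT box and 2 GC boxes at 39 and 34 bases that share a base. No CCAAT box overlaps a GC box in these 3 stretches.

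Promoter windows of 300 bases, 250 before to 50 after the start, were matched for 21 of the 29 genes, with 2 starts for Srebf1. A CCAAT box stood in the window of 16 of the 21 genes (76.2%) against 37.5% of all 33469 promoters of that length, and a GC box in 18 of 21 (85.7%) against 33.1%. The windows of the 21 genes held from 53.7% (Idi1) to 71.3% (Insig1) of G and C. All promoters were not matched to them for base content, on which such matches depend. Mvk and Nsdhl had the most CCAAT boxes, with 5 each. The E-box CACGTG, a palindrome, stood in 3 of 21 (14.3%), in Sc5d, Insig1 and Abca1, against 6.42% of all promoters. The sterol response element core TCACNCCAC or its reverse complement stood in 0 of 21 windows and in 1.12% of all, which says only that these letters are not in these windows. A match is a description of the letters and not a site of binding. Pmvk, Fdft1, Sqle, Stard4, Abcg1, Acaca, Fasn and Elovl6 were not matched.

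The first comparison asks how the cultures responded to the 3-100 kDa proteins. Within the sterol steps the enzymes parted: Msmo1 rose 2.06-fold and Dhcr7 fell 1.54-fold against IC, and these were the only 2 of the 29 genes (6.9%) past a false discovery rate (FDR) of 0.05. Across all genes tested 3.31% passed it. The test was limma on log2(TPM + 1) after the libraries were rescaled to a common median ratio, with 3 against 3 libraries and p-values adjusted over all 12788 genes that reached 1 TPM in at least 3 of the 6 libraries. Folds and log2 fold changes are on that scale, on which genes of low level show less than their full change.

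Msmo1, an oxidase that acts after Cyp51 in the removal of methyl groups from the sterol ring, had 133, 149 and 143 TPM in IC and 250.01, 324 and 292 TPM after 3-100 kDa proteins. The lowest treated library lay far above the highest of IC. The log2 fold change was 1.05 ± 0.155 (SE), with a 95% interval from 0.68 to 1.41 and an adjusted p of 0.0147 by limma. Dhcr7, the reductase that makes cholesterol from its last precursor, had 62.7, 58.3 and 53.2 TPM in IC and 36.8, 36.7 and 35.9 TPM after treatment. In TPM as deposited the 3 treated libraries were nearly equal, but their rescaling factors over all 12 libraries were 1.03, 1.05 and 0.909. All were below IC on both scales. Its log2 fold change was -0.62 ± 0.116 (SE), with a 95% interval from -0.90 to -0.35 and an adjusted p of 0.0350 by limma. Both kept their direction whichever library was left out, but Msmo1 missed the FDR without IC 1, 3-100 kDa proteins 2 or 3-100 kDa proteins 3, with adjusted p-values up to 0.108, and Dhcr7 missed it when any of the 6 libraries other than IC 2 was left out, up to 0.205. Dhcr7 also missed it with TPM as deposited (adjusted p = 0.0630 by limma) and with the replicate block (adjusted p = 0.166), where Msmo1 had 0.0420. In these groups same-numbered libraries did not all deviate together.

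A further 5 of the genes had an unadjusted p under 0.05 without passing the FDR. Idi1, which interconverts the isoprenoid units of the early pathway, had 129, 135 and 148 TPM in IC and 194, 216 and 208 TPM after the proteins. Cyp51 had 155, 150.5 and 168 TPM in IC and 199, 223 and 187 TPM after them. All treated libraries of both genes stood above IC, by 0.61 ± 0.147 (SE; adjusted p = 0.0775 by limma) for Idi1 and 0.39 ± 0.130 (SE; adjusted p = 0.184) for Cyp51 on the log2 scale. Fdft1, which commits farnesyl diphosphate to squalene, had 124 TPM in each IC library and 104, 88.5 and 92.8 TPM after the proteins. Abcg1 had 8.39, 5.52 and 8.77 TPM in IC and 3.86, 2.57 and 3.04 TPM after them. Srebf1 had 19.0, 22.2 and 17.9 TPM in IC and 11, 13.4 and 15.1 TPM. In these 3 genes every treated library was below IC, with log2 fold changes of -0.35 ± 0.128 (SE; adjusted p = 0.214 by limma) for Fdft1, -1.005 ± 0.243 (SE; adjusted p = 0.0798) for Abcg1 and -0.52 ± 0.194 (SE; adjusted p = 0.224) for Srebf1. Over 11 other settings of the fit, Idi1 and Abcg1 kept an unadjusted p under 0.05 in limma, while Cyp51 went over it in 4 (the replicate block and without IC 1, 3-100 kDa proteins 2 or 3), Srebf1 in 4 (without IC 2, IC 3, 3-100 kDa proteins 1 or 2) and Fdft1 in 3 (the replicate block and without IC 3 or 3-100 kDa proteins 2).

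So 3 of the 29 genes (10.3%) were higher and 4 (13.8%) lower at an unadjusted p under 0.05, while 10.1% of all genes tested were higher and 6.88% lower at that threshold. After rescaling, the treated and IC libraries did not overlap for 8 of the 29 genes (27.6%), against 23.6% of all genes. The eighth was Mvk, whose TPM as deposited overlapped, while Nsdhl was apart as deposited and not after rescaling. Without 3-100 kDa proteins 2 the count at an unadjusted p under 0.05 was 4 (13.8%, against 10.7% of all genes in that fit) in place of 7. The median log2 fold change was 0.01 for the 29 and -0.02 for all genes. In a fit of all 12 libraries, which share 1 estimate of the spread, 5 of the 29 (17.2%) passed the FDR (Idi1, Cyp51, Msmo1, Dhcr7 and Abcg1), against 7.34% of all genes. Abcg1 also passed it without IC 2, its lowest IC library, at a log2 fold change of -1.19 and an adjusted p of 0.0427 by limma, where 3.84% of all genes passed, and over all settings its adjusted p ran from 0.0282 to 0.314. With 3 against 3 libraries an exact permutation test of a single gene cannot go below p = 0.1 (two-sided), so the call of a gene rests on the spread that limma pools over genes.

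The other genes of the set were not past that threshold after 3-100 kDa proteins, with Mvk at a log2 fold change of -0.40. Of the 7 early genes 1 (Idi1) and of the 11 sterol genes 4 had an unadjusted p under 0.05, and none of the 5 fatty acid genes did, with log2 fold changes between -0.30 and 0.28. Insig1 had 79.5, 75.3 and 97.4 TPM in IC and 80.7, 115 and 96.9 TPM after the proteins. Srebf2 had 75.6, 81.0 and 76.8 TPM in IC and 76.5, 78.9 and 66.3 TPM after them. Both regulators overlapped between the groups, with 95% intervals of the log2 fold change from -0.22 to 0.69 for Insig1 and from -0.32 to 0.22 for Srebf2. Abca1, the other sterol exporter, had 11.4, 7.92 and 14.8 TPM in IC and 6.001, 14.2 and 17.5 TPM after the proteins, so its treated libraries reached beyond IC on both sides. Its 95% interval of the log2 fold change ran from -0.89 to 1.06, and that of Abcg1 from -1.57 to -0.44. The difference between the exporters was not tested. Hmgcs1 (620, 750 and 674 TPM), Fdps (387, 346 and 323 TPM), Ebp (8.93, 7.23 and 6.09 TPM) and Stard4 (6.61, 8.98 and 8.98 TPM) overlapped with IC too.

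**Figure D3:**
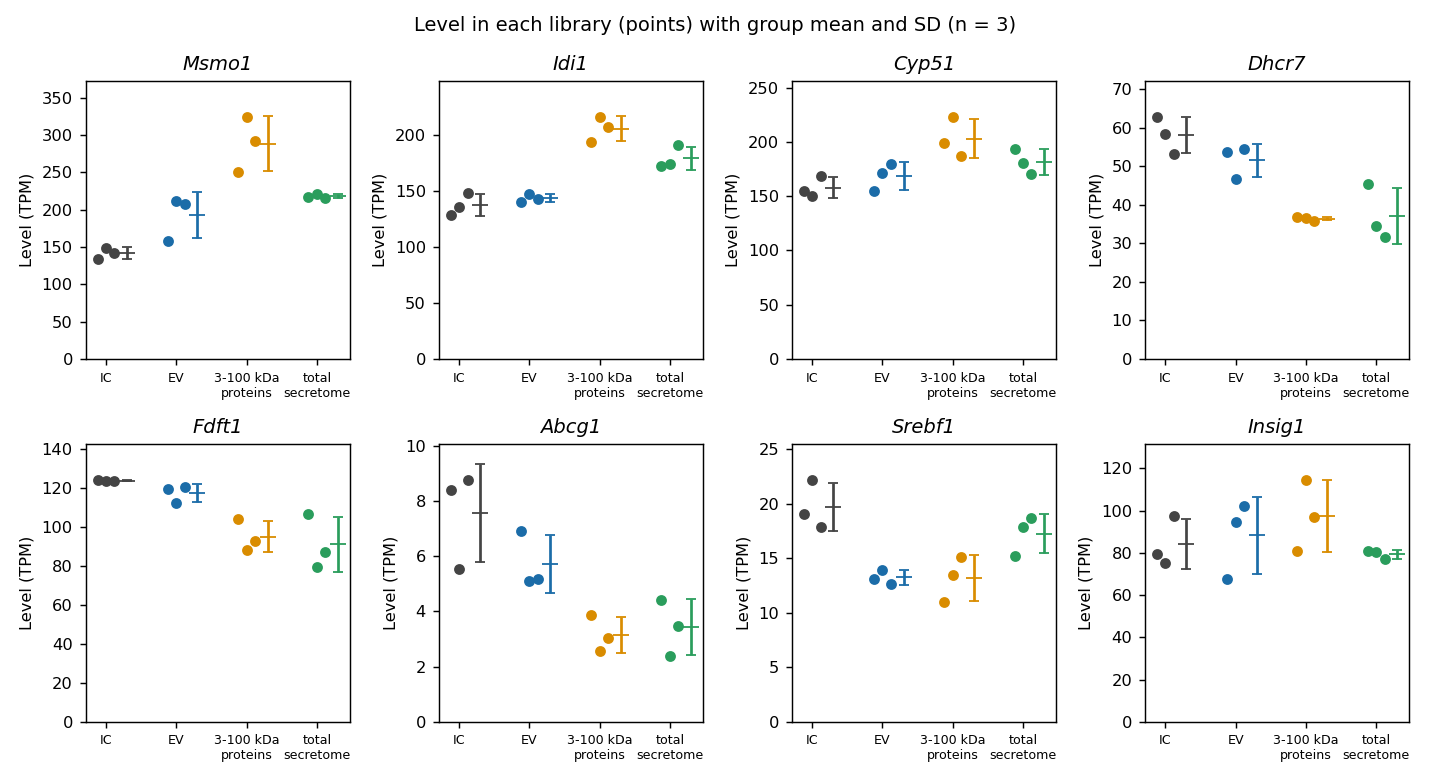
Level in TPM of 8 genes in each library (points), with the mean and SD of each group of 3 beside them and every axis starting at 0. Msmo1 and Idi1 stand above IC in all libraries given 3-100 kDa proteins or total secretome, Dhcr7, Fdft1 and Abcg1 stand below it, and Srebf1 has its lowest means after EV and 3-100 kDa proteins.

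Levels of cell type markers stand beside this comparison. None of the 7 neuron markers and none of the 8 astrocyte markers had an unadjusted p under 0.05 in limma. The 7 neuron markers summed to between 2339 and 2443 TPM in IC and between 1919 and 2239 TPM after 3-100 kDa proteins, without overlap, and the 8 astrocyte markers to between 693 and 803 TPM and between 741 and 1202 TPM, which overlap. Of the oligodendrocyte lineage, 2 of 8 markers tested were lower at an unadjusted p under 0.05, Olig1 (log2 fold change -0.59) and Sox10 (-0.79), and the summed level ran from 227 to 305 TPM in IC and from 160.3 to 245 TPM after treatment. The 7 astrocyte markers other than Gfap summed to between 441 and 649.7 TPM in IC and between 499.7 and 755 TPM after the proteins. Of the fibroblast and mural markers 2 entered the test, each through 1 group only: Pdgfrb had 3.18, 4.01 and 2.45 TPM in IC and 0.481, 0.851 and 0.321 TPM after the proteins, and Col1a1 had 0.360, 0.0365 and 0.261 TPM in IC and 1.29, 1.64 and 1.81 TPM after them. The part of the makeup of the cultures in the differences of the lipid genes was not tested.

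The second comparison asks the same of the total secretome. The same contrast within the sterol steps was seen in the levels, Msmo1 1.56-fold higher and Dhcr7 1.54-fold lower than in IC, but neither passed the FDR of 0.05 and 0 of the 29 genes did, against 1.97% of all 12787 genes tested. Msmo1 had 218, 221 and 216 TPM after the secretome, all above IC, with a log2 fold change of 0.64 ± 0.125 (SE) and an adjusted p of 0.0520 by limma. Dhcr7 had 45.5, 34.4 and 31.6 TPM, all below IC, with -0.63 ± 0.125 (SE) and an adjusted p of 0.0549. Both values lie just beyond the threshold. Both genes, with Abcg1, passed it without IC 2, at adjusted p-values of 0.0252, 0.0345 and 0.0441 by limma, in a fit where 6.41% of all genes did, and Msmo1 and Dhcr7 passed it in the fit of all 12 libraries, where 4.22% of all genes did. In the other 9 settings none of the 3 passed. Their adjusted p-values by limma were 0.0562, 0.0711 and 0.0645 with the replicate block, in libraries whose same-numbered pairs deviated together. They went up to 0.276, 0.294 and 0.434 without total secretome 2. These values share the IC libraries with those of the first comparison and are no independent repeat of them.

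At an unadjusted p under 0.05, 2 of the 29 genes (6.9%) were higher and 3 (10.3%) lower, against 9.56% higher and 6.68% lower among all genes, and without total secretome 2 the count was 3 (10.3%, against 9.4% of all genes in that fit) in place of 5. Idi1, with 172, 175 and 191 TPM, was the other higher gene (log2 fold change 0.40 ± 0.151, SE; adjusted p = 0.246 by limma). Abcg1, with 4.42, 2.39 and 3.47 TPM, was lower by a log2 fold change of -0.94 ± 0.255 (SE; adjusted p = 0.125), and Fdft1, with 107, 79.5 and 87.5 TPM, by -0.43 ± 0.127 (SE; adjusted p = 0.152). All libraries of these 3 genes lay outside the range of IC. Idi1 went over an unadjusted p of 0.05 in 3 of 11 other settings and Fdft1 in 1, and Abcg1 in none of them. Cyp51 had 194, 181 and 170.1 TPM, above IC in every library, but with an unadjusted p of 0.113 in limma. After rescaling, groups did not overlap for 9 of the 29 genes (31%), against 24% of all genes, and beside those named these were Mvk, Tm7sf2 and Nsdhl, all lower (Tm7sf2 overlapped in TPM as deposited), with unadjusted p-values between 0.0767 and 0.138 in limma.

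Srebf1 had 15.2, 17.9 and 18.7 TPM after the secretome, overlapping with the 17.9 to 22.2 TPM of IC, with a 95% interval of the log2 fold change from -0.56 to 0.24, which holds the -0.52 seen after 3-100 kDa proteins. The other regulators overlapped with IC as well, Insig1 with 80.7, 80.4 and 76.9 TPM and Srebf2 with 80.9, 70.0 and 73.2 TPM. Abca1 had 9.36, 11.6 and 17.4 TPM. None of the 5 fatty acid genes had an unadjusted p under 0.05 (log2 fold changes from -0.30 to 0.16). With the replicate block, in libraries whose same-numbered pairs deviated together, Acaca did (log2 fold change -0.30, unadjusted p = 0.0448 and adjusted p = 0.257 by limma). Hmgcs1 (650.5, 600.3 and 586 TPM), Fdps (388, 330.1 and 316 TPM), Ebp (4.84, 4.25 and 8.05 TPM) and Stard4 (7.72, 7.10 and 7.26 TPM) were not past that threshold either. Without IC 2, Stard4 (log2 fold change -0.47, adjusted p = 0.123 by limma) and Acaca (-0.44, adjusted p = 0.161) went past it. In that fit 7 of the 29 genes (24.1%) did, against 27.8% of all genes. The median log2 fold change was -0.09 over the 29 genes and -0.01 over all genes. Beside these values, the neuron markers summed to between 1862 and 2324 TPM after the secretome and the astrocyte markers to between 929 and 1322 TPM, both without overlap with IC. The 7 astrocyte markers other than Gfap summed to between 658 and 687 TPM, against 441 to 649.7 TPM in IC. Gfap, the intermediate filament of astrocytes and the 1 marker of the 8 with an unadjusted p under 0.05, had a log2 fold change of 1.397 (adjusted p = 0.269 by limma), and Olig2 of 0.53 (adjusted p = 0.0958). Pdgfrb, a mural cell gene, had 1.34, 1.03 and 1.20 TPM, below its 2.45 to 4.01 TPM in IC (log2 fold change -0.92, adjusted p = 0.0912 by limma). Their part in the lipid genes was not tested.

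**Figure D4:**
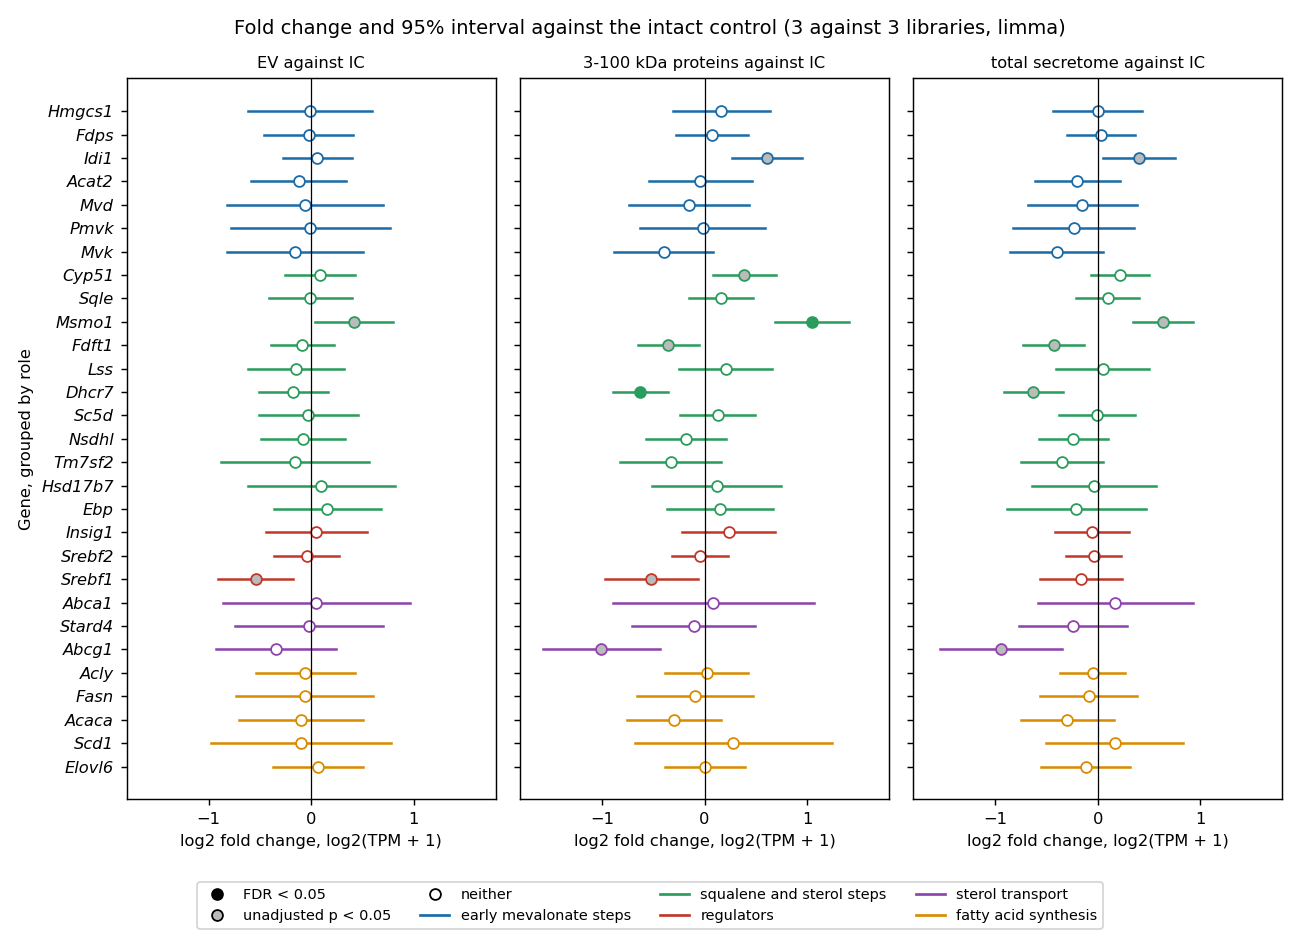
Log2 fold change on the log2(TPM + 1) scale with its 95% interval from limma for the 29 genes in the 3 comparisons with IC, 3 against 3 libraries each, with filled points past FDR 0.05, grey points at an unadjusted p under 0.05 and open points for neither. Only Msmo1 (1.05) and Dhcr7 (-0.62) are filled, both after 3-100 kDa proteins, and the intervals of most other genes cross 0.

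The third comparison asks the same of the extracellular vesicles, where all genes gave the fewest calls against IC. By limma, 0 of the 29 passed the FDR, against 0.141% of all 12749 genes tested, and 1 was higher and 1 lower at an unadjusted p under 0.05, against 2.02% and 0.8% of all genes (3.45% of the 29 each). Srebf1 had 13.1, 13.9 and 12.6 TPM after EV, below the 17.9 to 22.2 TPM of IC in every library. Its log2 fold change was -0.54 ± 0.157 (SE), with a 95% interval from -0.91 to -0.18, an unadjusted p of 0.0100 and an adjusted p of 0.925 by limma. The size was near that after 3-100 kDa proteins (-0.52), in libraries set against the same IC cultures. Msmo1 had 158, 212 and 208 TPM, above IC in every library, with a log2 fold change of 0.42 ± 0.162 (SE; unadjusted p = 0.0347 and adjusted p = 0.9998 by limma). EV 1, at 158 TPM, was the closest to IC.

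For 3 of the 29 genes (10.3%) the EV libraries did not overlap with IC after rescaling, against 6.16% of all genes. The third was Dhcr7 with 53.8, 46.7 and 54.4 TPM, which overlapped with IC as deposited (log2 fold change -0.18 ± 0.143, SE; unadjusted p = 0.258 in limma). Without both IC 2 and EV 1 the log2 fold change was 0.57 for Msmo1 and -0.48 for Srebf1, and 3 of the 29 genes (10.3%, against 6.32% of all genes in that fit) had an unadjusted p under 0.05 in place of 2, the third being Abcg1 (log2 fold change -0.67). Without EV 1 alone the values of Msmo1 and Srebf1 were 0.54 and -0.56. Without IC 1, IC 3, EV 2 or EV 3 1 of the 29 genes (3.45%, against 1.83% to 2.33% of all genes in those fits), Srebf1, was left at that threshold. In the fit of all 12 libraries 0 of the 29 passed the FDR, against 0.463% of all genes. The median log2 fold change was -0.05 over the 29 genes and -0.01 over all.

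The remaining genes overlapped between EV and IC after rescaling, and as deposited all but Fdft1 did. Idi1 (141, 148 and 143 TPM), Cyp51 (154, 171 and 180 TPM), Fdft1 (119, 112 and 121 TPM) and Abcg1 (6.92, 5.09 and 5.16 TPM) had log2 fold changes between -0.34 and 0.08. Insig1 (67.8, 94.6 and 102 TPM), Srebf2 (71.2, 75.5 and 81.0 TPM), Abca1 (6.08, 16.2 and 15.2 TPM) and Hmgcs1 (460, 670.2 and 769 TPM) had changes within 0.05 of 0, and in 3 of these 4 genes EV 1 was well under both other EV libraries. Without EV 1 the log2 fold changes were 0.21 for Insig1, -0.02 for Srebf2, 0.45 for Abca1 and 0.18 for Hmgcs1. Without IC 2 they were -0.03, -0.02, -0.17 and -0.18. Fdps had 376, 298 and 338 TPM, Ebp 6.84, 7.83 and 7.998 TPM and Stard4 6.96, 7.74 and 13.0 TPM. The 5 fatty acid genes had log2 fold changes between -0.10 and 0.07, but their signs hung on single libraries. Without EV 1 all 5 were positive, from 0.12 (Acly) to 0.25 (Scd1). Without IC 2 all 5 were negative, from -0.10 (Elovl6) to -0.27 (Scd1). Without both they lay between -0.01 (Elovl6) and 0.08 (Scd1). Astrocyte markers summed to between 911 and 1307 TPM after EV, above IC without overlap. Of the 8 markers only Gfap had an unadjusted p under 0.05, at 491, 617 and 362 TPM against 85.1, 361 and 128 TPM in IC (log2 fold change 1.58, adjusted p = 0.9998 by limma). The other 7 summed to between 419 and 690.2 TPM, overlapping with IC. Neuron markers, at 2233 to 2498 TPM, overlapped with IC. Pdgfrb had 1.12, 1.73 and 0.960 TPM, below IC in every library (log2 fold change -0.90, adjusted p = 0.743 by limma). Their part in these values was not tested.

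The treatments were also compared with each other, at the unequal doses given above. EV and 3-100 kDa proteins differed at an unadjusted p under 0.05 in 5 of the 29 genes (17.2%), against 9.34% of all genes: Idi1 and Msmo1 were lower after EV by 0.54 ± 0.115 and 0.61 ± 0.163 (SE) on the log2 scale, Cyp51 by 0.29 ± 0.113, and Dhcr7 and Abcg1 were higher by 0.46 ± 0.139 and 0.67 ± 0.225. Without 3-100 kDa proteins 2 the count was 3 (10.3%, against 5.27% of all genes in that fit), and without EV 1 it was 4 (13.8%, against 14.1%), with Cyp51 and Abcg1 lost and Acaca gained. None passed the FDR in the unpaired fit (0.534% of all genes did). Libraries of the same number deviated together in these groups, and with the replicate block in the fit 2 of the 29 passed it, Msmo1 (adjusted p = 0.0191 by limma) and Idi1 (adjusted p = 0.0362), while calls over all genes went from 68 to 340 (2.67%). At an unadjusted p under 0.05 the block gave 7 of the 29 (24.1%), against 21.1% of all genes, with Fdft1 (higher after EV, adjusted p = 0.112 by limma) and Scd1 (lower after EV, adjusted p = 0.115) added. The comparison shares its 3-100 kDa protein libraries with that of the proteins and IC. Srebf1 was not among these genes, at a log2 fold change of -0.01 with a 95% interval from -0.45 to 0.43.

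EV and total secretome differed in 4 of the 29 genes (13.8%) at an unadjusted p under 0.05, against 7.7% of all genes, and in 0 at the FDR, against 0.188%. Dhcr7 (0.46 ± 0.153, SE), Fdft1 (0.36 ± 0.135) and Abcg1 (0.61 ± 0.245) were higher and Idi1 (-0.33 ± 0.127) was lower after EV, on the log2 scale, and the count fell to 0 without total secretome 2 or without EV 3 (3.76% and 6.64% of all genes in those fits) and to 1 without total secretome 3 (3.45%, against 4.55%). Without EV 1 it was 5 (17.2%, against 22% of all genes in that fit), with Abcg1 lost and Insig1 and Acaca gained. Msmo1 was not past that threshold here, with a 95% interval from -0.53 to 0.12. Total secretome and 3-100 kDa proteins differed in 1 gene (3.45%), against 2.64% of all genes, and in 0 at the FDR, against 0.0157%. That gene was Msmo1, lower after the secretome by 0.39 ± 0.122 (SE) on the log2 scale, with an unadjusted p of 0.0127 by limma. Its 216 to 221 TPM there lay between the 133 to 149 TPM of IC and the 250.01 to 324 TPM of the protein fraction. With the replicate block 4 genes (13.8%, against 5.24% of all genes) had an unadjusted p under 0.05, Idi1 and Insig1 beside Msmo1 as lower after the secretome and Srebf1 as higher, and the unpaired count was 7 (24.1%, against 10.1% of all genes in that fit) without 3-100 kDa proteins 1, 2 (6.9%, against 2.95%) without total secretome 1 and 3 (10.3%, against 2.2%) without total secretome 3. In the unpaired fit Srebf1 had a log2 fold change of 0.37 (95% interval from -0.09 to 0.82, adjusted p = 0.9999 by limma). Dhcr7 was nearly equal in both, with a log2 fold change of 0.01 and a 95% interval from -0.27 to 0.29.

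Further genes of lipid handling were read from 6 lists with 88 genes in all, each found in the tables. After 3-100 kDa proteins, 77 of them were tested, and 8 were higher and 3 lower at an unadjusted p under 0.05, with 3 past the FDR, or 10.4%, 3.9% and 3.9% against 10.1%, 6.88% and 3.31% of all genes. Elovl1, which lengthens saturated fatty acids to very long chains, had 9.98, 12.4 and 7.72 TPM in IC and 24.3, 22.4 and 24.9 TPM after the proteins, and rose by a log2 fold change of 1.22 ± 0.190 (SE; adjusted p = 0.0178 by limma). Pparg, the nuclear receptor of adipocyte lipid storage, had 0, 0.126 and 0.150 TPM in IC and 1.39, 2.29 and 1.59 TPM after the proteins (1.33 ± 0.230, SE; adjusted p = 0.0268). Agpat2, which makes phosphatidic acid, was listed at 0 in all 3 IC libraries and at 1.69, 1.07 and 1.55 TPM after the proteins (adjusted p = 0.0309 by limma). Pparg and Agpat2 passed the filter only through the treated libraries, so their difference was built into the filter. Without them 6 were higher and 1 was past the FDR.

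After total secretome, 75 of the 88 were tested, and 4 were higher and 4 lower at an unadjusted p under 0.05, with 0 past the FDR, or 5.33% in each direction against 9.56% higher and 6.68% lower among all genes. Elovl1 had 15.2, 21.3 and 15.0 TPM (log2 fold change 0.74 ± 0.208, SE; adjusted p = 0.134 by limma), and Elovl5, an elongase of polyunsaturated fatty acids, had 77.1, 82.0 and 74.9 TPM against 49.7, 25.7 and 52.6 TPM in IC (0.94 ± 0.269, SE; adjusted p = 0.140). Every secretome library of both genes stood above IC. After EV, 75 were tested, with 1 higher, 1 lower and 0 past the FDR, or 1.33% in each direction against 2.02% and 0.8% of all genes. Angptl4, a secreted inhibitor of lipoprotein lipase and a PPAR target, had 7.85, 16.2 and 10.5 TPM against 3.24, 4.67 and 2.42 TPM in IC (1.46 ± 0.291, SE; adjusted p = 0.259 by limma). Acadm, which oxidises medium-chain fatty acids, had 6.65, 5.35 and 4.78 TPM against 9.38, 8.54 and 8.37 TPM (-0.58 ± 0.193, SE; adjusted p = 0.9998).

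These lists are short, and the shares of all genes just given (after 3-100 kDa proteins 10.1% higher and 6.88% lower, after total secretome 9.56% and 6.68%) stand beside their counts. By list, the 8 genes of SREBP processing gave none at an unadjusted p under 0.05 in limma in any of the 3 comparisons with IC, and the 11 tested genes of further sterol synthesis and uptake gave none either. Of the 10 tested genes listed under LXR and its targets, 1 was higher and 3 lower after 3-100 kDa proteins. After total secretome 3 were lower, and after EV none differed at that threshold. The lower ones in both were Rxra, the partner receptor of LXR, and the lipid transporters Abca2 and Abca3. The higher one was Mylip, a ubiquitin ligase of lipoprotein receptors. None of these passed the FDR, and whether LXR acts on them in these cells was not tested. Of 6 tested genes of sterol esterification and hydroxylation, 1 was higher after 3-100 kDa proteins, and 1 was higher and 1 (Lipa, the lysosomal lipase) lower after total secretome. The higher one in both was Soat1, which esterifies cholesterol for storage, at 8.40, 11.5 and 16.5 TPM after the proteins and 7.50, 10.1 and 10.2 TPM after the secretome, against 6.68, 5.54 and 5.49 TPM in IC. Among the further genes of fatty acid and triglyceride synthesis, 5 of 23 tested were higher after 3-100 kDa proteins (Elovl1, Agpat2, Elovl5, Me1 and Acsl3, or 4 without Agpat2), 3 of 22 after total secretome (Elovl1, Elovl5 and Me1) and 0 of 22 after EV, and none were lower. The median log2 fold change of that list was 0.03, 0.04 and -0.02 in the same order. Of the genes of fatty acid oxidation and PPAR targets, 1 of 19 was higher after 3-100 kDa proteins (Pparg, or none without it), 0 of 18 differed after total secretome and 1 was higher and 1 lower of 18 after EV.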

How the data were processed

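Polyadenylated RNA of 12 libraries was sequenced. According to the study's methods, the authors trimmed reads with Trimmomatic and Cutadapt, assigned them to Ensembl transcripts of the rat genome (Rnor_6.0 per the submitters' processing notes) with Salmon and summed transcripts to genes with tximport. The deposited values are TPM per gene, read from the tables themselves, since no header names the unit. TPM keeps no read depth, so the count test that the authors used could not be run. The labels and the methods name different library kits.

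From these values, rows of 1 gene name were summed, the 6 libraries of each comparison were rescaled by median-of-ratios factors (0.909 to 1.08 over all 12), and limma 3.58.1 in R 4.3.3 (lmFit, eBayes with a mean-variance trend) was fitted to log2(TPM + 1) of genes that reached 1 TPM in 3 or more libraries. P-values were adjusted by Benjamini-Hochberg over all genes tested, with a threshold of 0.05. The procedure was also run on simulated data. No outcome of that run is given here, so it says nothing about the changes reported above. The genes, the further lists and the tests were chosen with earlier results of these data known. Values in every library are given for genes with an unadjusted p under 0.05 in a comparison with IC, the 3 highest and 3 lowest in IC, the regulators Insig1, Srebf1 and Srebf2 and the exporters Abca1 and Abcg1. From the further lists they are given for genes past the FDR and the 2 of lowest p in each comparison with IC. Other genes, among them Soat1, Mvd, Mvk, Tm7sf2, Nsdhl, Rxra, Abca2, Abca3, Mylip, Lipa, Me1, Acsl3, Acaca and single cell type markers, were named after their values were seen.

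Group labels came from the submitters' treatment field. Overlap of groups was counted on rescaled values. The study removed a day effect before clustering IC and EV libraries, but the labels give no day, so no day term could be fitted. Replicate numbers came from the sample titles, and no source used here ties a number to a culture or animal. Whether they pair libraries was read only from these same values, by the correlation of same-numbered libraries' deviations from their group means. Every pair was over 0.1 for total secretome against IC (0.158 to 0.247), EV against 3-100 kDa proteins (0.288 to 0.590), EV against total secretome (0.186 to 0.263) and total secretome against 3-100 kDa proteins (0.215 to 0.380), but not for EV against IC (-0.18 to 0.54) or 3-100 kDa proteins against IC (-0.25 to 0.25). Alternatives tried were a pseudocount of 0.1, no filter, TPM as deposited, a fit of all 12 libraries, a replicate block and leaving out each library. Leaving out both IC 2 and EV 1 was chosen after seeing the data. Promoters came from RefSeq (GRCr8).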

Additional observations from a re-analysis of the deposited data

How the results depend on the processing

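Of the fold changes with an unadjusted p under 0.05 (24 values, 266 settings), 0 were reversed, 10 lost and 11 gained the FDR call, and 42 had an unadjusted p over 0.05. Genes outside these 24 values are left out of this count. For 3-100 kDa proteins against IC, the count past the FDR was 1 with TPM as deposited, 5 in the fit of all 12 libraries, 1 with the replicate block, and 0 to 3 with 1 library left out, and the count at an unadjusted p under 0.05 was 4 (13.8%, against 10.7% of all genes in that fit) to 8 (27.6%, against 18.5%). Its same-numbered libraries did not all deviate together. Msmo1 stayed between 0.96 and 1.18 and Dhcr7 between -0.67 and -0.59 on the log2 scale, and Dhcr7 lost the call with TPM as deposited and with the replicate block. For total secretome against IC, the count past the FDR was 2 in the fit of all 12 and 0 to 3 with 1 library left out, and that at an unadjusted p was 3 (10.3%, against 9.4%) to 7 (24.1%, against 27.8%). With 1 library left out the latter ranged from 1 to 2 for EV against IC (2 is 6.9%, against 3.14% of all genes without IC 2 and 4.82% without EV 1), 3 to 5 for EV against 3-100 kDa proteins (5 is 17.2%, against 8.37%), 0 to 5 for EV against total secretome (5 is 17.2%, against 6.43% without total secretome 1 and 22% without EV 1) and 1 to 7 for total secretome against 3-100 kDa proteins (7 is 24.1%, against 10.1%). For the last pair it was 2 without the filter and 4 with the replicate block (Idi1, Insig1 and Srebf1 added), and the median was -0.155 to -0.0142. The replicate block gave 2 past the FDR for EV against 3-100 kDa proteins. At an unadjusted p under 0.05 it added Fdft1 and Scd1 there and Acaca for total secretome against IC, dropped Fdft1 and Cyp51 for 3-100 kDa proteins against IC, and changed no call for EV against IC or EV against total secretome. Counts over all genes past the FDR moved far more, from 18 to between 0 and 59 for EV against IC, from 423 to between 83 and 938 for 3-100 kDa proteins, from 252 to between 31 and 809 for total secretome, from 68 to between 2 and 340 for EV against 3-100 kDa proteins, from 24 to between 0 and 58 for EV against total secretome and from 2 to between 0 and 5 for the last pair. Fewer samples enter a fit with 1 library left out, and otherwise the cause was not tested. Depth is unknown, so precision rests on the 3 libraries per group.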
